A study of Mus musculus with 10 samples.

Results

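The genes described here are 10 that make, load, modify or take up lipoproteins in the brain: the apolipoprotein genes Apoe, Apod, Clu and Apoc1, the lipid exporter genes Abca1 and Abca7, the enzyme genes Lcat and Lpl, and the receptor genes Lrp1 and Sorl1. They were chosen by name with earlier results of these data known, and all 10 were found among the 55536 mouse gene entries of every table and passed the filter on low counts in every comparison. RNA-seq was performed on the cerebellum and the cortex of 5 mice aged 1 year, for 10 libraries in total. The Snx14-KO mice (KO 1 and KO 2) are homozygous for a frameshift deletion in Snx14, which encodes a sorting nexin of the endoplasmic reticulum. The 3 control mice comprised 2 Het animals with 1 intact copy (controls 1 and 2) and 1 WT animal (control 3). Per the study's methods the KO line was made in C57BL/6J embryos and backcrossed to the same strain, and the mutation is constitutive, so all cell types of both tissues carry it. Each mouse gave both tissues, each library holds whole dissected tissue, and each library is 1 animal.

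In the brain, lipids travel between cells on particles that resemble high-density lipoprotein. Apolipoprotein E, secreted mostly by astrocytes, is the main protein of these particles, ABCA1 loads it with cholesterol and phospholipid, LCAT esterifies the cholesterol, and receptors of the LDL receptor family such as LRP1 take the particles up. In glia, apolipoprotein E carries lipids away from stressed neurons, and the nuclear receptors LXR and RXR raise transcription of Apoe and Abca1 when sterols accumulate.

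On GRCm38 the apolipoprotein genes lie as follows, with the strand in brackets: Apoe at chr7:19696109-19699188 (−), Apod at chr16:31296192-31314808 (−), Clu at chr14:65968483-65981547 (+) and Apoc1 at chr7:19689481-19692660 (−). The exporters and enzymes are Abca1 at chr4:53030787-53159895 (−), Abca7 at chr10:79996494-80015572 (+), Lcat at chr8:105939551-105943382 (−) and Lpl at chr8:68880491-68907448 (+). The receptors are Lrp1 at chr10:127538161-127621148 (−) and Sorl1 at chr9:41964720-42124297 (−). All 10 are annotated as protein-coding, and their merged exons span 744 bases (Apoc1) to 17717 bases (Lrp1).

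The RefSeq promoter table for GRCm38.p6 held 7 of the 10 genes (Apoe, Apod, Abca1, Abca7, Lcat, Lrp1 and Sorl1). Windows of 250 bases before the transcription start were searched on both strands for the TATA box (TATAAA), the GC box (GGGCGG), the CCAAT box (CCAAT), the E-box (CACGTG) and a perfect LXR element (the letters AGGTCA as a direct repeat spaced by 4 bases), none of which overlapped another within these windows. Apoe and Apod are shown because they were 2 of the 3 members whose mRNA was higher in KO cerebellum by the test below, and Abca1 because its window held the largest number of matches among the 7. The sequences are 5′ to 3′ on the strand of the gene, with motif matches in capitals.
Apoe (chr7:19699189-19699438, minus strand): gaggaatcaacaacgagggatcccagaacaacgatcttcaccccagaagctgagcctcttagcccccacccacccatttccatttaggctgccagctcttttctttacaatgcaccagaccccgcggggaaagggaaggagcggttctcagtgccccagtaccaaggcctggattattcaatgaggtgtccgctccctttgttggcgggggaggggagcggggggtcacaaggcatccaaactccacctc
Apod (chr16:31314809-31315058, minus strand): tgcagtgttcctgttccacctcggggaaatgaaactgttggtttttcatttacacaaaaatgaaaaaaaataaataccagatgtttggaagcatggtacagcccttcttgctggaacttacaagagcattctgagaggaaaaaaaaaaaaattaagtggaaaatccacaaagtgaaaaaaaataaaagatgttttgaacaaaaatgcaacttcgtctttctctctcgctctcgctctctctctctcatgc
Abca1 (chr4:53159896-53160145, minus strand): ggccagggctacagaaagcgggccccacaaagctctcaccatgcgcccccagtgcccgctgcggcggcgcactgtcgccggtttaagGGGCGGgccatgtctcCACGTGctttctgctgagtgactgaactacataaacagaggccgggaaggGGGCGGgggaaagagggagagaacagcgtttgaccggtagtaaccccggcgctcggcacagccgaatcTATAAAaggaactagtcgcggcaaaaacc

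None of the 5 motifs was found in the windows of Apoe and Apod, whose GC contents were 57.2% and 36.4%. The Abca1 window (61.6% GC) held a TATA box that began 29 bases before the start site, 2 GC boxes and 1 E-box. In the windows not shown, a GC box lay in those of Abca7, Lrp1 and Sorl1, a CCAAT box in those of Abca7 and Lcat, and an E-box in that of Sorl1. Among all 32851 promoters of the table, windows of the same length held the TATA box in 12.4%, the GC box in 32.7%, the CCAAT box in 33.8%, the E-box in 6.02% and the LXR element in 0.0152%. A match is only a string of letters, and the counts carry no information on binding. Imperfect copies of the LXR element were not searched for, so a window without a match may still hold one.

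Library totals were 16088310 to 22975355 gene counts. Snx14 itself was 39.9 to 73.2 CPM (counts-per-million, scaled by TMM factors over all 10 libraries) in control cerebellum and 15.5 to 17.4 in KO cerebellum, and 34.3 to 50.8 in control cortex and 14.8 to 16.1 in KO cortex, so each KO library lay below every control of its tissue. By Xist and Y-linked genes, control 2 and KO 2 were male and the other mice female. The summed CPM of 8 granule cell markers was 3848 to 4516 in cerebellum and 91.0 to 117 in cortex, and that of 9 cortical excitatory neuron markers was 423 to 492 and 1413 to 1957. The control 2 libraries stood apart from the other controls: relative to the mean of the other controls of the tissue, genes with over 10 kb of exonic bases had a median log2 deviation of −0.0976 in cerebellum and −0.164 in cortex, and genes under 2 kb 0.0991 and 0.198.

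Apoe was the most abundant member in every group once CPM were divided by exonic length. In control cerebellum its level was 728 ± 35.7 CPM per kb (SD, n = 3), and Clu (141), Apod (101), Sorl1 (69.4), Lcat (41.9), Lrp1 (33.5), Abca7 (10.8), Abca1 (6.79), Apoc1 (2.80) and Lpl (0.147) followed in CPM per kb. No neighbours in this order overlapped between libraries. In control cortex Apoe was at 727 ± 64.8 CPM per kb and Clu at 193, and the order of the rest was Apod (59.7), Sorl1 (30.1), Lrp1 (26.4), Lcat (10.9), Abca7 (3.90), Abca1 (3.66), Lpl (3.06) and Apoc1 (0.815). There the ranges of Sorl1 and Lrp1 overlapped, as did those of Abca7 and Abca1 and those of Abca1 and Lpl. Together the 10 genes made up 0.305% to 0.411% of all gene counts in the controls, and Apoe alone 37.5% to 51.6% of their sum.

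**Figure D1:**
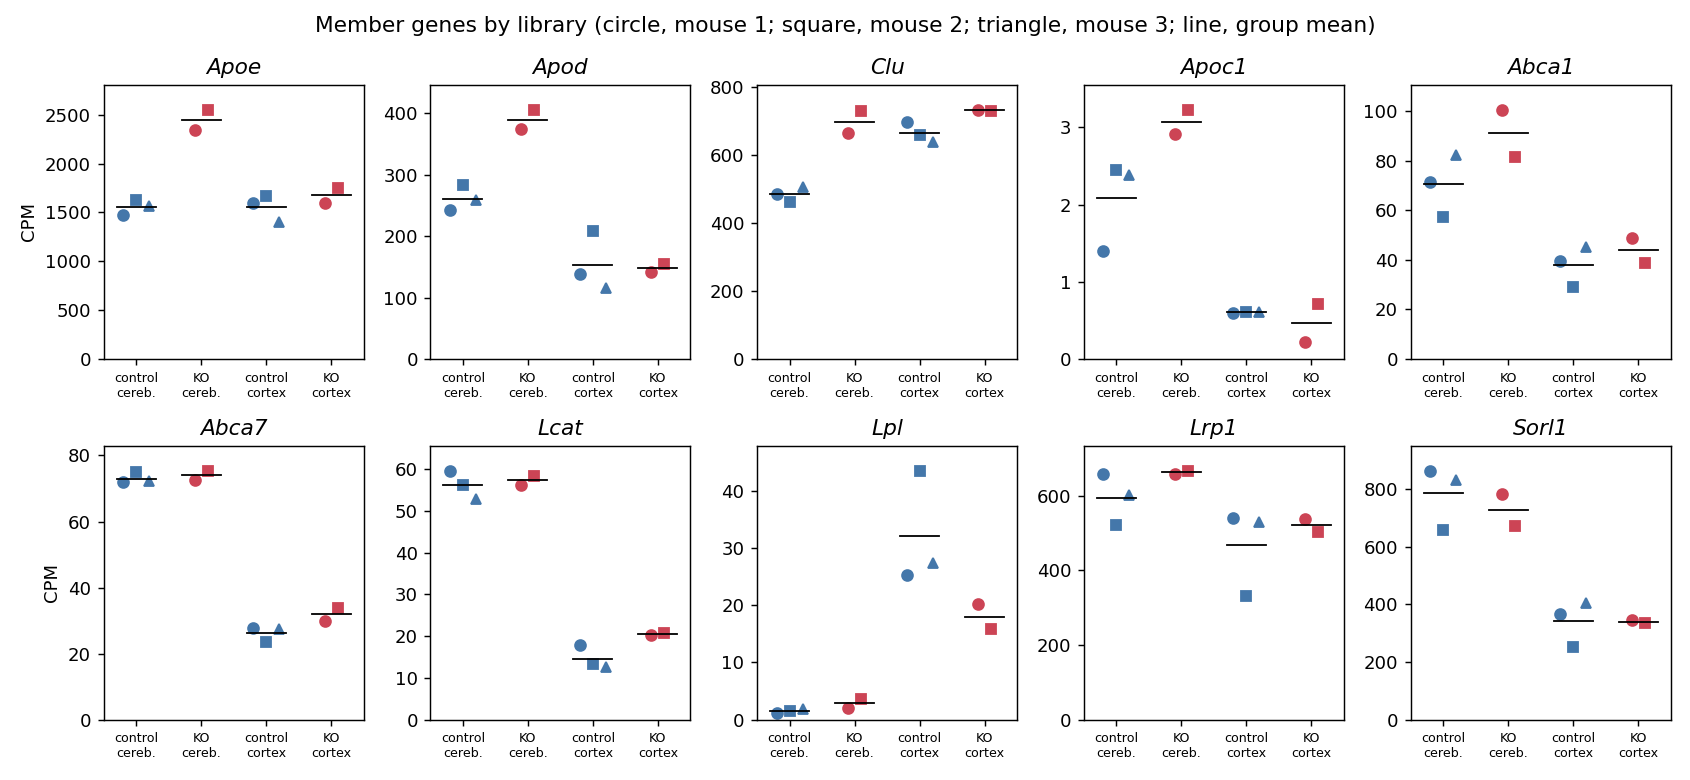
CPM of the 10 genes (y axis, linear from 0, 1 panel per gene) in each library of the 4 groups (x axis, cereb. for cerebellum), with controls in blue, KO in red, marker shapes for the mouse number within its genotype and a line at the group mean. The KO cerebellum points lie above all control points for Apoe, Apod, Clu, Apoc1, Lpl and Lrp1, and Lpl is far higher in cortex than in cerebellum.

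In the cerebellum the 3 well-expressed apolipoprotein genes rose in KO. Apoe was at 1474, 1625 and 1570 CPM for controls 1 to 3, at 2346 CPM for KO 1 and at 2550 CPM for KO 2. The groups did not overlap, and the log2 fold change was 0.65 (SE 0.0963, adjusted p = 0.0124, edgeR quasi-likelihood F test with Benjamini-Hochberg adjustment over all genes tested), or 1.57-fold. In these bulk samples more cells of a type and more RNA per cell cannot be told apart.

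Apod, which encodes a lipocalin that binds arachidonic acid and other small lipids, was 243, 282 and 258 CPM in controls and 374 and 405 CPM in KO. Both KO libraries lay above all controls (log2 fold change 0.57, SE 0.0856, adjusted p = 0.0129). Clu, which encodes the secreted chaperone clusterin (apolipoprotein J), was 485, 461 and 505 CPM in controls and 663 and 728 CPM in KO. It too showed no overlap (log2 fold change 0.52, SE 0.0837, adjusted p = 0.0176), and lay just past the fold threshold of 0.5 on the log2 scale. Apoc1, whose gene lies beside Apoe on chromosome 7, had only 30 to 53 reads per control library. Its level was 1.40, 2.45 and 2.39 CPM in controls and 2.91 and 3.23 CPM in KO, and the difference did not pass the test (log2 fold change 0.56, SE 0.279, adjusted p = 0.459).

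Neither lipid exporter passed the test in the cerebellum. Abca1 was 71.5, 57.3 and 82.4 CPM in controls and 101 and 81.5 CPM in KO, so KO 2 lay within the control range (log2 fold change 0.36, SE 0.144, adjusted p = 0.321). Abca7, an ABCA1 relative that moves phospholipids, was 71.9, 74.9 and 72.2 CPM in controls and 72.5 and 75.4 CPM in KO. The SE of its log2 fold change was 0.0623 around a value of 0.01, the smallest SE among the 10 genes.

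Of the enzymes, Lcat was 59.6, 56.2 and 52.7 CPM in controls and 56.2 and 58.3 CPM in KO (log2 fold change 0.02, SE 0.0745, adjusted p = 0.947). Lpl encodes lipoprotein lipase, which releases fatty acids from triglyceride-rich particles, and it was the least expressed member in cerebellum. Its level was 1.26, 1.48 and 1.88 CPM in controls and 2.085 and 3.682 CPM in KO, from 27 to 89 reads per library. KO 2 was at 2.39 times the control mean and KO 1 at 1.35 times, and the difference did not pass the test (log2 fold change 0.91, SE 0.312, adjusted p = 0.24).

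Neither receptor gene passed the test. Lrp1 was 657, 522 and 602 CPM in controls and 658 and 667 CPM in KO, with KO 1 barely above control 1 (log2 fold change 0.15, SE 0.104, adjusted p = 0.617). Sorl1, which encodes a sorting receptor of the endosome that binds apolipoprotein E, was 864, 660 and 832 CPM in controls and 781 and 673 CPM in KO (log2 fold change −0.12, SE 0.128, adjusted p = 0.788). Control 2 was the lowest control for Abca1, Lrp1 and Sorl1, all with over 10 kb of exonic bases, in both tissues. For Lpl, which also has over 10 kb of exonic bases, control 2 was the middle control in cerebellum and the highest in cortex. Control 2 was also the highest control for Apoe and Apod in both tissues.

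A gene counted as called where its adjusted p was under 0.05 and its log2 fold change over 0.5 in either direction. By that rule 3 of the 10 members were called in cerebellum, all higher in KO, where 1.55% of all genes tested were called in either direction and 0.514% were called higher. As the members were chosen with earlier results known, this count is a description. DESeq2 called the same 3 members and 2.35% of its genes. The KO libraries lay above all controls for 6 of 10 members, against 15.4% of all genes tested. The median log2 fold change was 0.44 over the members and 0.000899 over all genes tested. The calls, but not the direction, depended on single libraries. With control 1, control 3 or KO 2 left out, 0 members were called, and with control 2 left out 2 were (Apoe and Apod). Apoe had an adjusted p of 0.0687, 0.0778 and 0.0606 without control 1, control 3 and KO 2, and Apod had 0.0775, 0.0817 and 0.0815. Clu had 0.105, 0.0765 and 0.108, and without control 2 its log2 fold change of 0.48 was under the fold threshold. Over the fits that left out 1 library, the log2 fold change ranged from 0.58 to 0.71 for Apoe, from 0.51 to 0.63 for Apod and from 0.44 to 0.59 for Clu. Within each sex, the KO over control ratio of Apoe was 1.54 in females (1 KO, 2 controls) and 1.57 in males (1 KO, 1 control), that of Apod 1.49 and 1.44, and that of Clu 1.34 and 1.58.

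Astrocyte and microglia marker sums were also higher in KO cerebellum. The summed CPM of 12 astrocyte markers was 6051 to 6550 in control and 6962 to 7259 in KO cerebellum, with 4 of the 12 called higher and none at 0. That of 12 microglia markers was 256 to 295 in controls and 388 to 389 in KO, with 3 of 12 called higher and none at 0. Oligodendrocyte markers, relevant to Apod, summed to 4595 to 6902 in controls and 6125 to 7824 in KO, with 0 of 11 called. Purkinje cell markers fell, with 11 of 12 called lower and sums of 9946 to 11800 against 5368 to 5563. Sums of 18 disease-associated microglia genes (1455 to 1485 in controls, 1688 to 1745 in KO, 2 of 18 called higher), of 6 pericyte markers (120 to 123 and 148 to 165, 1 of 6 called higher) and of 8 endothelial markers (97.1 to 112 and 117 to 121, 0 of 8 called) also lay above all controls. The pericyte markers had a median log2 fold change of 0.042, with 4 of 6 above 0. The sum of 10 striatum markers lay above all controls too (446 to 488 and 508 to 539, 0 of 9 tested called). KO 1 stood apart in its choroid plexus markers, which summed to 61.3 against 2945 in KO 2 and 1208 to 3432 in controls. The part of these cell types in the changes of Apoe, Apod and Clu was not tested.

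**Figure D2:**
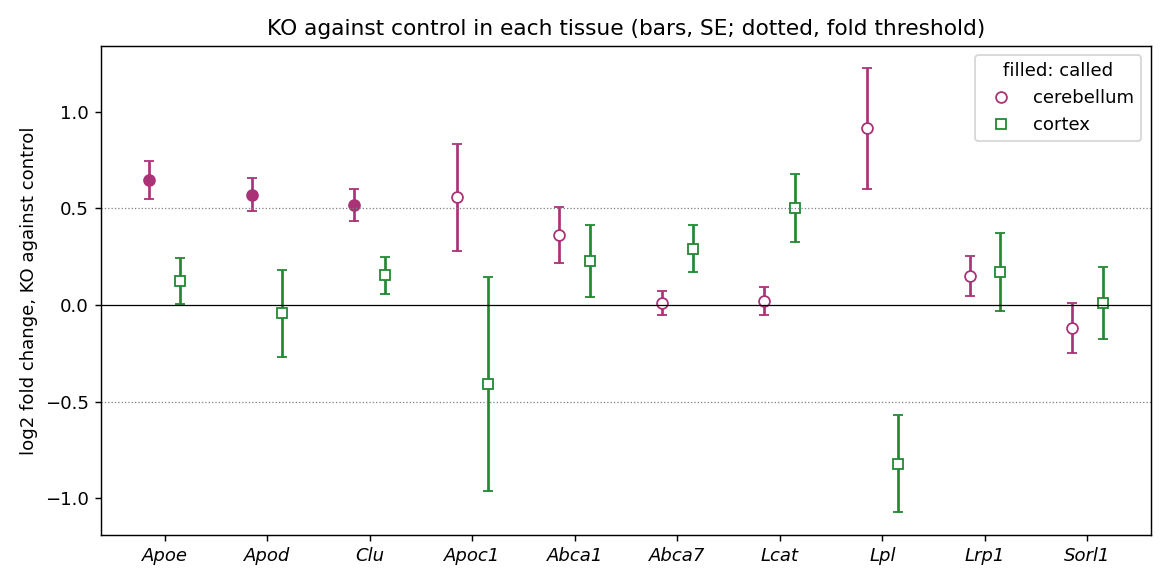
Log2 fold change of KO against control (y axis) for each of the 10 genes (x axis), with circles for cerebellum, squares for cortex, bars of 1 SE, filled symbols for called genes and dotted lines at the fold threshold of 0.5. The filled symbols are Apoe, Apod and Clu in cerebellum, and Lpl lies at 0.91 in cerebellum and at −0.82 in cortex.

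In the cortex no member was called by edgeR, which called 0% of all genes tested there. Snx14 itself was not called there by edgeR (log2 fold change −1.36, SE 0.192, adjusted p = 0.754). DESeq2 did call it (adjusted p = 2.11e-06). So a member not called in cortex is not thereby shown to be unchanged. By edgeR 3 members had an unadjusted p under 0.05 (Lcat and Abca7 higher, Lpl lower), against 1139 of all 19202 genes tested. DESeq2 called no member and 0.273% of its genes. Apoe was 1599, 1665 and 1398 CPM in controls and 1596 and 1755 CPM in KO, with KO 1 inside the control range (log2 fold change 0.12, SE 0.12, adjusted p = 0.911). Apod was 138, 208 and 116 CPM in controls and 141 and 155 CPM in KO, all KO values inside the control range. Control 2, which had the highest Apod, also had the highest oligodendrocyte marker sum of the cortex libraries (9329 against 5057 to 5527 in the others).

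Clu was 696, 658 and 639 CPM in control cortex and 732 and 730 CPM in KO. The 2 KO values lay just above the controls (log2 fold change 0.15, SE 0.0978, adjusted p = 0.886). Lcat was 18.0, 13.3 and 12.6 CPM in controls and 20.2 and 20.8 CPM in KO, also without overlap (log2 fold change 0.50, SE 0.175, adjusted p = 0.796). Abca7 was 27.9, 23.5 and 27.6 CPM in controls and 30.0 and 33.7 CPM in KO (log2 fold change 0.29, SE 0.122, adjusted p = 0.829). These 3 members lay above all controls, against 10.5% of all genes tested. Sums of astrocyte markers (3981 to 5330 CPM in controls, 5681 to 5994 in KO, 0 of 12 called, 5 of 12 at an unadjusted p under 0.05) and of pericyte markers (109 to 138 and 146 to 151, 0 of 6 called, 1 of 6 at an unadjusted p under 0.05) also lay above all controls in KO cortex, and their part in these values was not tested.

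Lpl was the 1 member below all controls in cortex, against 14.2% of all genes tested. Its cortex level was 25.3, 43.5 and 27.4 CPM for the controls, 20.2 CPM for KO 1 and 15.8 CPM for KO 2, and the difference did not pass the test (log2 fold change −0.82, SE 0.252, adjusted p = 0.768). The order of the cortex libraries for Lpl was close to their order for striatum markers, genes of the tissue that lies under the cortex. Those 10 markers summed to 2025, 4491 and 1840 CPM for controls 1 to 3, to 1148 CPM for KO 1 and to 609 CPM for KO 2, with 0 of 10 called, 10 of 10 at an unadjusted p under 0.05 and none at 0. Their part in the Lpl values was not tested.

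**Figure D3:**
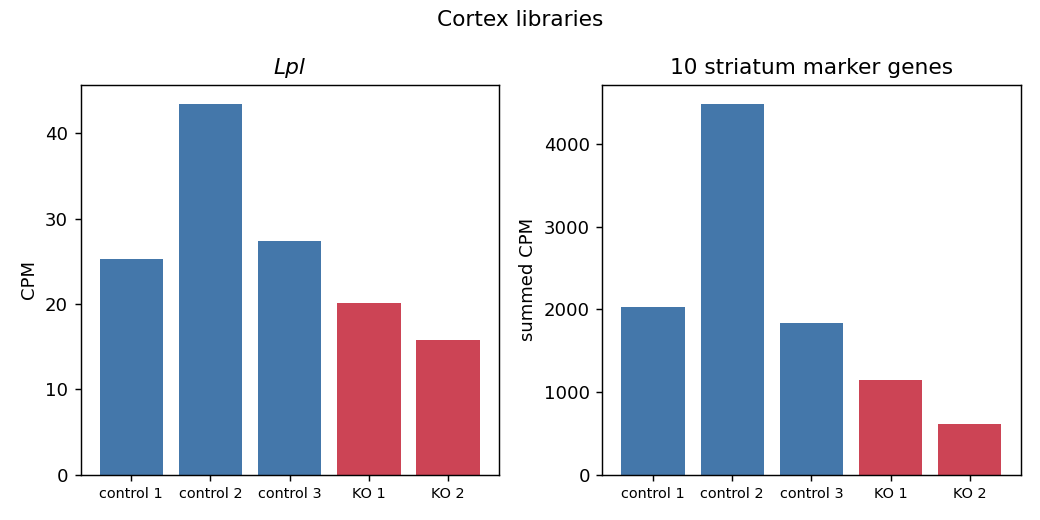
Lpl in CPM (left) and the summed CPM of 10 striatum marker genes (right) in each of the 5 cortex libraries, as bars from 0 with controls in blue and KO in red. Control 2 is highest and KO 2 lowest in both panels.

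The other 4 members overlapped between KO and control cortex. Abca1 was 39.5, 29.1 and 45.1 CPM in controls and 48.8 and 38.9 CPM in KO (log2 fold change 0.23, SE 0.188). Lrp1 was 541, 333 and 529 CPM in controls and 537 and 504 CPM in KO (log2 fold change 0.17, SE 0.201). Sorl1 was 366, 251 and 405 CPM in controls and 346 and 335 CPM in KO (log2 fold change 0.01, SE 0.187). For all 3, control 2 was the lowest cortex library. Apoc1, with only 4 to 12 reads per cortex library, was 0.599, 0.608 and 0.614 CPM in controls and 0.221 and 0.707 CPM in KO (log2 fold change −0.41, SE 0.553, adjusted p = 0.933). Across the 10 members the median log2 fold change was 0.14, beside 0.00122 over all genes tested.

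Between the tissues of control mice, 7 of the 10 members differed. Cerebellum was higher for 6 of them, where 19.1% of all genes tested were called higher, and lower for 1, where 21.5% were called lower and 40.5% were called in either direction. Lcat had the largest rise: 59.6, 56.2 and 52.7 CPM in cerebellum against 18.0, 13.3 and 12.6 in cortex (log2 fold change 1.94, SE 0.137, adjusted p = 5.93e-06, edgeR). Apoc1 (1.76, SE 0.317), Abca7 (1.47, SE 0.0897), Sorl1 (1.20, SE 0.182), Abca1 (0.89, SE 0.179) and Apod (0.76, SE 0.191) were also higher in cerebellum on the log2 scale, with no overlap between the tissues.

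Lpl went the other way and was 0.0478-fold in cerebellum relative to cortex (log2 fold change −4.39, SE 0.264, adjusted p = 2.26e-06). Apoe did not differ detectably between the tissues (log2 fold change −0.00191, SE 0.0991, adjusted p = 0.989). Clu was lower in cerebellum by the test (log2 fold change −0.46, SE 0.083, adjusted p = 0.00157) but under the fold threshold. Lrp1 was 1.27-fold in cerebellum with an adjusted p of 0.146, and with the mouse as a block the adjusted p was 0.00865 at a log2 fold change of 0.37, also under the fold threshold. The same 7 members were called with the mouse as a block.

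The ratio of cerebellum to cortex within each mouse was set side by side for KO mice and controls, as a description. For Apoe the controls 1 to 3 had ratios of 0.922, 0.976 and 1.12, while KO 1 had 1.47 and KO 2 had 1.45. For Apod it was 1.76, 1.36 and 2.23 in controls and 2.65 and 2.62 in KO. For Clu it was 0.696, 0.700 and 0.791 in controls and 0.905 and 0.997 in KO. For Lpl the ratio was 0.0497, 0.0340 and 0.0686 in controls and 0.103 and 0.233 in KO. The ratios of Abca1 (up to 1.97 in controls, 2.06 and 2.10 in KO) and of Apoc1 (up to 4.03 in controls, 13.2 and 4.57 in KO) were likewise higher in both KO mice than in any control. The Apoc1 ratio of 13.2 in KO 1 rested on 4 reads in its cortex library. Lcat was lower in both KO mice, at 3.32, 4.22 and 4.19 in controls and 2.78 and 2.81 in KO, and so was Abca7, at 2.58, 3.19 and 2.62 in controls and 2.42 and 2.24 in KO. In all, 6 members lay above all controls, against 15.9% of 19708 genes with reads in every library, and 2 below, against 12.2%. Lrp1 and Sorl1 overlapped.

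Whether the KO effect differed between tissues was tested as an interaction in 1 fit of all 10 libraries. By edgeR 0 of 10 members passed an adjusted p of 0.05, as did 0.102% of all genes tested. An unadjusted p under 0.05 was held by 5 of 10 members, against 1706 of all 20614 genes tested. Lpl had the largest difference, 1.77 on the log2 scale (SE 0.428, adjusted p = 0.196), and Apoe had 0.55 (SE 0.149, adjusted p = 0.265). With the mouse as a block no member passed, against 0.621% of all genes tested, and the adjusted p was 0.0659 for Lpl and 0.097 for Apoe. DESeq2 passed 2 members, Lpl (adjusted p = 0.00656) and Apoe (adjusted p = 0.0211), against 1.15% of its genes. Apod and Clu passed in none of these 3 fits.

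**Figure D4:**
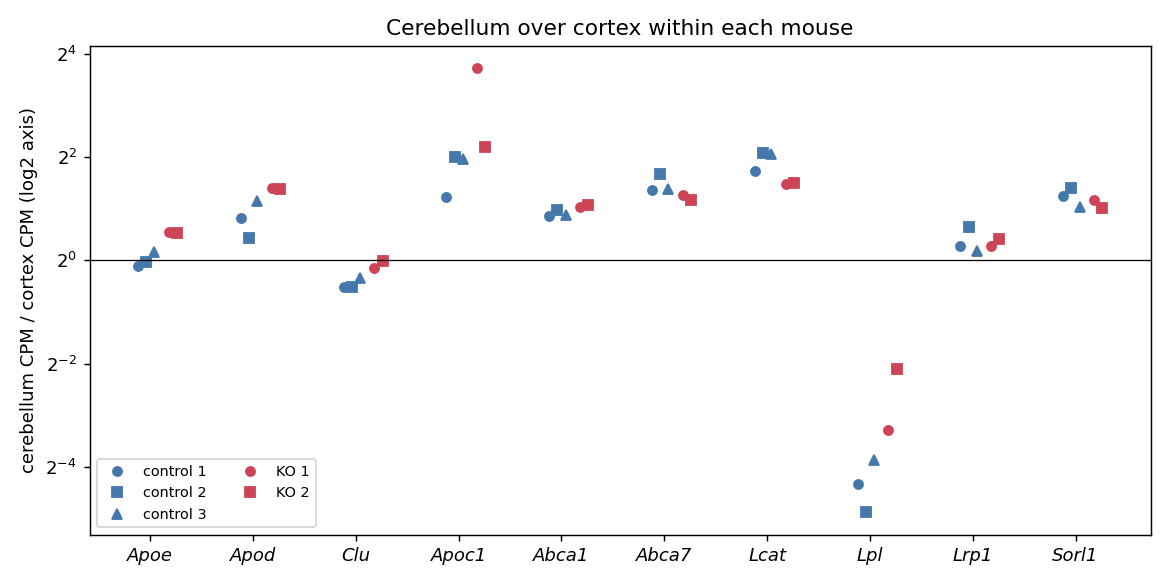
Ratio of cerebellum CPM to cortex CPM within each mouse (y axis, log2 axis) for the 10 genes (x axis), with controls in blue and KO in red and marker shapes for the mouse number. Apoe lies at 0.922 to 1.12 in controls and at 1.45 and 1.47 in KO, and Lpl is the lowest of the genes in all 5 mice.

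Other genes of lipoprotein biology were read from 5 lists. In the KO comparisons 0 genes of these lists were called by edgeR or by DESeq2, in either tissue. The 19 lipoprotein receptors and adaptors tested in cerebellum had a median log2 fold change of 0.12, the 14 LXR and RXR genes and their targets 0.13, the 12 lipases and lipid transfer genes 0.14, the 10 ABC lipid transporters −0.03 and the 4 other apolipoproteins −0.04. At an unadjusted p under 0.05 there were 5, 5, 1, 1 and 0 genes of these lists in cerebellum, and 1, 1, 1, 1 and 0 in cortex. Among all genes tested there were 2611 of 19447 in cerebellum and 1139 of 19202 in cortex. Lrp4, an LDL receptor relative named after its values were seen, had an adjusted p of 0.0461 in cerebellum at a log2 fold change of 0.46, under the fold threshold. In cerebellum the summed CPM of the LXR and RXR list was 2059 to 2170 in controls and 2305 to 2485 in KO. That of the ABC lipid transporters was 778 to 801 and 817 to 827. Both sums lay above all controls in KO, and the sums of the remaining lists overlapped.

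Between the tissues of control mice the same lists held calls in both directions. Over all genes tested, 19.1% were called higher in cerebellum and 21.5% lower. Among receptors and adaptors 3 of 18 were called higher in cerebellum and 7 lower, with Sorcs2 (−1.98) and Scarb1 (−1.84) among those changed most on the log2 scale. Of the ABC lipid transporters 2 of 10 were higher and 2 lower, led by Abca4 (2.27), Abca6 (−1.23) and Abca9 (−0.62). Among lipases and lipid transfer genes 2 of 12 were higher and 2 lower, with Lipg at −7.10, where the control cerebellum libraries held 0 or 1 read and the fitted value is no bound, and Pltp at 1.84. The LXR and RXR list, which shares Pltp and Abcg1 with the lists above, had 4 of 14 higher and 2 lower, with Rxrg (−6.15), Nr1h3 (2.50) and Pltp changed most. Only Apoa2 was called among the other apolipoproteins (1.09, 3 tested). Choroid plexus markers summed to 1208 to 3432 CPM in control cerebellum and 13.25 to 29.05 CPM in control cortex, with 8 of 8 called higher. Their part in the differences between the tissues was not tested.

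The genes whose log2 CPM ran closest to each member over the 10 libraries were sought among 16137 genes, by the root mean square (RMS) difference after centring. They were 0610009E02Rik, Abhd4 and Rgma for Apoe (RMS 0.0881 to 0.12), Tprkb, Gadd45g and Smim4 for Apod (0.119 to 0.157), and Acsl3, Arpc1b and Tspan12 for Clu (0.0786 to 0.107). For Abca1 they were Paqr8, Lsamp and Lrrc8a (0.118 to 0.137), for Abca7 Zbtb18, Arhgef26 and Smg1 (0.083 to 0.1), and for Lcat Plscr4, Plekhh3 and Samd14 (0.115 to 0.143). For Lrp1 they were Ubr4, Akap10 and Prdm11 (0.0776 to 0.0831) and for Sorl1 St8sia1, Palld and 2900072N19Rik (0.0739 to 0.105). Apoc1 and Lpl had no gene as close: Xkr7, Fam131c and Dhx58 lay at 0.311 to 0.335 from Apoc1, and Dclk3, Pou3f1 and Mme at 0.22 to 0.289 from Lpl. All points share libraries and the difference between the tissues, so the likeness is a description.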

How the data were processed

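RNA from cerebellum and cortex of 5 mice was sequenced in 10 libraries, and groups followed the labels. The authors deposited raw counts of read pairs per gene, made by aligning to GRCm38 and counting exons with featureCounts of Subread 2.0.1, without strand although the libraries were strand-specific. Entries without a mouse gene identifier (0.160% to 0.926% of counts) were left out. Gene names came from GENCODE M21, whose coordinates matched for 55450 of 55536 entries. Exons of the 10 genes overlapped no other gene except for 1.63% of those of Sorl1 (an antisense gene).

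Tests were edgeR's quasi-likelihood F (glmQLFTest, edgeR 4.0.16, R 4.3.3), run for KO versus control per tissue (TMM factors, filterByExpr with a count minimum of 10), for cerebellum versus cortex among controls, and for the interaction in 1 fit of all 10 libraries. p-values rest on 2 or 3 mice per group. DESeq2 1.42.0, other size factors, no filter, blocks and left-out libraries were alternatives. Printed CPM are scaled over all 10 libraries. The scripts were tested on simulated data. Both tissues came from the same mice, whose deviations correlated (r = 0.164 to 0.37). The main fits between tissues and of the interaction had no term for the mouse. It served as a block only in alternative fits. The members and lists were chosen with earlier results of these data known. The genes named are the 10 members, Snx14, list genes called in a KO comparison, up to 3 list genes per list with the largest called difference between tissues and a mean of at least 1 CPM, and the 3 genes nearest to each member. Some genes that this rule names are not reported here.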

Additional observations from a re-analysis of the deposited data

Results flagged for a closer look

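Lpl lay above all controls in both KO cerebellum libraries and below all controls in both KO cortex libraries, a difference of 1.77 between the tissues on the log2 scale. The test of that difference gave an adjusted p of 0.196 by edgeR, 0.0659 with the mouse as a block and 0.00656 by DESeq2. The cerebellum values rest on 27 to 89 reads per library. In cortex the 10 striatum markers summed to 1840 to 4491 CPM in controls and 609 to 1148 CPM in KO. Their median difference between the tissues was 2.14 on the log2 scale, with 10 of 10 above 0 and 0 passing by edgeR. Their part in the Lpl difference was not tested.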

How the results depend on the processing

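With 2 or 3 mice per group, depth limits mainly Apoc1 and cerebellar Lpl. The count of 3 members called in cerebellum ranged from 0 to 3 with 1 library left out, and all genes called there (302) from 133 to 400. The counts ranged from 0 to 98 in cortex (0 with all, the highest without control 2, and 7 without KO 2) and from 3 to 117 for the interaction (21 with all, the highest without control 2 of cortex, the lowest without KO 2 of cortex). DESeq2 called 49 genes in cortex and 219 in the interaction, where it passed 2 members. Without the filter on low counts, edgeR called 842 genes in cerebellum, with 4 members (Lpl in addition, adjusted p = 0.0432), 380 in cortex, with 1 member (Lpl), and 599 in the interaction, with 3 members (Apoe, Apod and Lpl). In these fits edgeR estimated no gene-to-gene variation of the dispersion. The 1 fit of all 10 libraries called 2 members in cerebellum (Apoe and Clu). Control and KO mice with the same number are not related by the labels, and their deviations correlated at −0.0353 to 0.114. A replicate block on that number left 1 member (Apod) and 181 genes in cerebellum and 3 genes in cortex. Control 1 and KO 1 were female and control 2 and KO 2 male, so this block also matched sex. Control 3 shared its number with no KO mouse, so the KO effect in this block rested on controls 1 and 2, both Het. With the mouse as a block the interaction gave 128 genes, and no call among the members changed.

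Values near 0 changed sign. In cerebellum Lcat was −0.0223 with the replicate block and −0.0223 to 0.0628 with 1 library left out, and Abca7 −0.0232 to 0.046. In cortex, with 1 library left out, Apod ranged from −0.21 to 0.24, Apoc1 from −1.41 to 0.22, Lrp1 from −0.0227 to 0.29 and Sorl1 from −0.17 to 0.15, and Sorl1 was −0.00344 in the fit of all 10 libraries. Between tissues Apoe was 0.0141 without the filter, 0.000753 with the mouse as a block and −0.0876 to 0.0421 with 1 library left out. For the interaction, Lrp1 was −0.0145 with RLE size factors, −0.0167 by DESeq2, −0.00295 without the filter, −0.0231 with the block and −0.14 to 0.18 with 1 library left out. Abca1 ranged from −0.00951 to 0.33 and Sorl1 from −0.27 to 0.05003 there. The cause was not tested.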
